A study of Mus musculus with 240 samples.

Results

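Interferon-induced genes were followed in 3 brain regions of naive mice of the 8 founder strains of the Collaborative Cross. The 37 members were chosen by symbol from the genes that the interferon pathway is known to induce, and all 37 were found among the 55414 genes of the deposited count table. Of these, 27 were in the deposited log2 table, which holds the genes left after the authors' filter on low counts, and only those 27 were tested. The other 10 members (Isg15, Usp18, Oas1a, Oas1b, Oas2, Oas3, Oasl1, Mx1, Zbp1 and Ifi44) are described by their counts with no test. RNA-seq was made from tissue punches of 48 adult mice, 8 weeks old per the labels and somewhat older per the study's methods, 3 females and 3 males of each strain, taken from the central amygdala (CeA, its central nucleus), the core of the nucleus accumbens (NAcc) and the prelimbic part of the cortex (PrL). The wild-derived strains were PWK/PhJ (PWK), WSB/EiJ (WSB) and CAST/EiJ (CAST). The others were NZO/HILtJ (NZO), C57BL/6J (B6), 129S1/SvImJ (S129), NOD (NOD/LtJ per the series' design text, NOD/ShiLtJ per the study's paper) and A/J (AJ). No mouse was treated or carried a transgene, so strain was the only genotype compared. Each mouse gave 1 library per region, and 6 libraries per strain and region were used, except 5 for B6 in the NAcc. The library totals had a median of 24456928 counts and ran from 14942820 to 33951616. The punches were bulk tissue, so that fewer cells of a type and less RNA per cell cannot be told apart for any gene below. The study set B6 and PWK, its strains of high ethanol preference, against the mean of the other 6 strains (Low_Average), and these were the main contrasts here.

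Type I interferons are secreted proteins that bind a receptor on the cell surface and, through the kinases JAK1 and TYK2, activate a transcription factor complex that holds STAT2 and IRF9. That complex binds the interferon-stimulated response element (ISRE) in promoters and induces genes whose products block viral replication, sense foreign nucleic acid or raise the response itself. A basal level of these transcripts is present without infection, and in the brain microglia, endothelium, astrocytes and neurons can all express them.

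The promoters of 5 members described below, among those with the largest differences of B6 or PWK from the other strains or with a strain that differed from all others, are shown because they hold the letters of the ISRE core. They are RefSeq sequences on GRCm38.p6, from 250 bases before to 50 bases after the start site, 5′ to 3′ on the strand of the gene. Capitals mark every match to the ISRE core, searched on both strands as GAAA, any 2 bases and GAAA, which reads TTTC, any 2 bases and TTTC on the other strand. Overlapping matches were counted, and the build is not the one used for the counts.
Ifit1, chr19:34640639-34640938, plus strand: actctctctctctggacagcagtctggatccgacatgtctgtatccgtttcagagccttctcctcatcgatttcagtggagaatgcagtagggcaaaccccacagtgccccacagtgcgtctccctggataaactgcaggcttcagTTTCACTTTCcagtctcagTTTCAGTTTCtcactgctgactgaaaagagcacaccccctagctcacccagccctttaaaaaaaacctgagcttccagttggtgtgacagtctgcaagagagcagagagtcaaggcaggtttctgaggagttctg
Ifit3, chr19:34583279-34583578, plus strand: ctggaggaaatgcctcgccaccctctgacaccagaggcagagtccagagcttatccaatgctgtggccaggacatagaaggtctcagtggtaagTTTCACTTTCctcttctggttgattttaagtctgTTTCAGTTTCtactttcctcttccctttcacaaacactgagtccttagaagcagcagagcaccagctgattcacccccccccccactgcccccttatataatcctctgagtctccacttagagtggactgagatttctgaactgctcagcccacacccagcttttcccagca
Ifit3b, chr19:34607707-34608006, plus strand: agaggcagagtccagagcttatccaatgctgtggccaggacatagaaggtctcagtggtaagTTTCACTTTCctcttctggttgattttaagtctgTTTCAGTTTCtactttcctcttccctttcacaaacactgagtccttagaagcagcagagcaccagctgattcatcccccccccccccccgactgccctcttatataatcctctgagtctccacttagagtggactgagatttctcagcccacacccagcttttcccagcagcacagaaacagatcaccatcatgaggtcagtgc
Gbp3, chr3:142559794-142560093, plus strand: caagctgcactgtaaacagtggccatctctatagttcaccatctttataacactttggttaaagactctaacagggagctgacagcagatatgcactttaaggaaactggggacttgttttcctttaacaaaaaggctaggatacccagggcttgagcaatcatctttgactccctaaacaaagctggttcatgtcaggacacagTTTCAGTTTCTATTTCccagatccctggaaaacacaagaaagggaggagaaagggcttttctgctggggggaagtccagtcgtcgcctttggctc
Trim30a, chr7:104465144-104465443, minus strand: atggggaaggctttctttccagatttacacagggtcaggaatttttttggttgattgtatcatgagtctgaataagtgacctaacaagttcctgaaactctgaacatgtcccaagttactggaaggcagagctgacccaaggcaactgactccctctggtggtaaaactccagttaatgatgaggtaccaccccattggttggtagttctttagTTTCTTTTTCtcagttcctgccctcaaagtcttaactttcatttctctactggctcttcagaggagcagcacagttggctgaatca
The matches in Ifit1 began 104 and 85 bases before the start site, those in Ifit3 156 and 122 bases before it, those in Ifit3b 188 and 154 bases before it, the overlapping pair in Gbp3 45 and 39 bases before it and the 1 in Trim30a 36 bases before it. RefSeq lists a second start site for Gbp3, with 0 matches in its window, and for Trim30a, with 1 match, and only 1 window of each is shown. Ifit3 and Ifit3b, neighbouring copies of the same gene on chromosome 19, shared an unbroken stretch of 169 bases in these windows, with both matches inside it. A promoter was found for 26 of the 37 members, and 14 of them (53.8%) held the ISRE core, against 3.99% of the 27025 genes with a promoter. The gamma-activated sequence (TTCNNNGAA), an element of the response to interferon gamma, was in 6 of 26 members (23.1%) and in 9.55% of genes. A match is a description of these letters in this window, and Irf7, Oasl2, Ifit2 and Xaf1 had no match to the ISRE core in theirs.

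Before the values are given, a library that stood apart from its group has to be named. In the CeA of NZO mouse 26, 35 of the 37 members were higher than in the other 5 NZO libraries of the CeA, and 26 of the 27 tested members were (29.0% of all genes were highest in that library). Its Ifit3 level was 11.95 CPM (counts-per-million of the scaled library size), against 1.035 to 2.408 CPM in the other 5, and its level of Usp18, the protease that removes ISG15 from proteins, was 3.782 CPM against at most 0.4616 CPM. Over the 27 members the library lay a median of 1.12 above its group median on the log2 scale, the largest such deviation among all libraries used. The same library also held 15840 CPM of 8 summed transcripts of oligodendrocytes, against 2557 to 2948.5 CPM in the other 5, and 2718 CPM of choroid plexus transcripts, against 18.5 to 218 CPM. The part of those cells in its interferon-induced transcripts was not tested. The PrL and NAcc libraries of mouse 26 did not stand out in this way, and the main counts that rest on the CeA library are given with and without it.

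**Figure D1:**
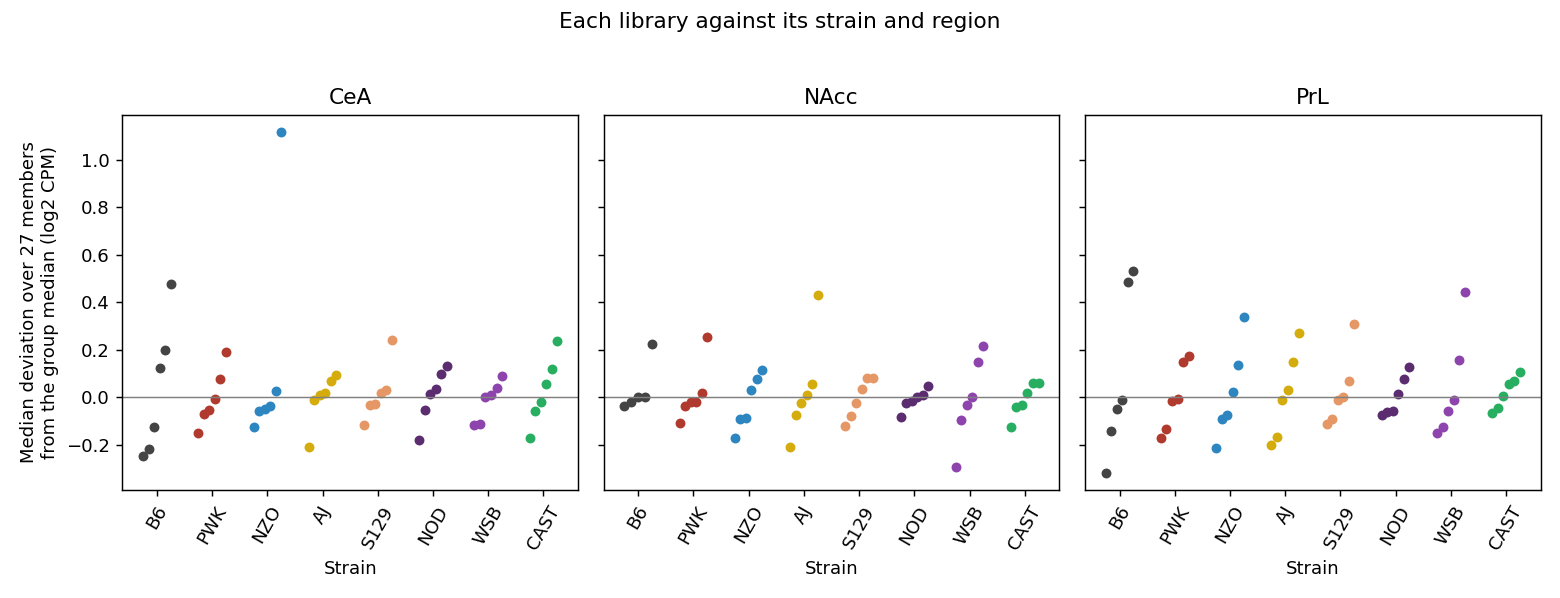
Each point is 1 library, placed by strain (x axis) at the median over the 27 tested members of its log2 CPM minus the median of its strain and region (y axis), in 3 panels for the regions. The highest point is the CeA library of NZO mouse 26 at 1.12, and the next highest are B6 libraries of the PrL (mice 33 and 25, 0.53 and 0.49) and of the CeA (mouse 1, 0.48).

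Strain differences were first counted over all 8 strains. In the CeA, 24 of the 27 tested members (25 without the CeA library of NZO mouse 26) differed among the 8 strains (limma-voom, F test, Benjamini-Hochberg adjusted p below 0.05 over all genes), against 80.8% of all genes. In the NAcc 23 members did, against 76.0%, and in the PrL 26, against 84.1%, so that the share of members with any strain difference was near the background in every region. The gap between the highest and the lowest strain mean had a median over members of 1.49, 1.54 and 1.17 on the log2 scale in the CeA, NAcc and PrL, against 0.55, 0.56 and 0.49 over all genes. It was above 1, a 2-fold difference, for 18, 16 and 18 members, against 25.4%, 25.7% and 22.3% of genes. B6 had the highest strain mean for 19, 10 and 15 members in the CeA, NAcc and PrL, where it was the highest strain for 17.3%, 18% and 13.1% of all genes. CAST had the lowest mean for 10, 12 and 12 members, where it was the lowest for 16%, 17.2% and 18.7% of genes.

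**Figure D2:**
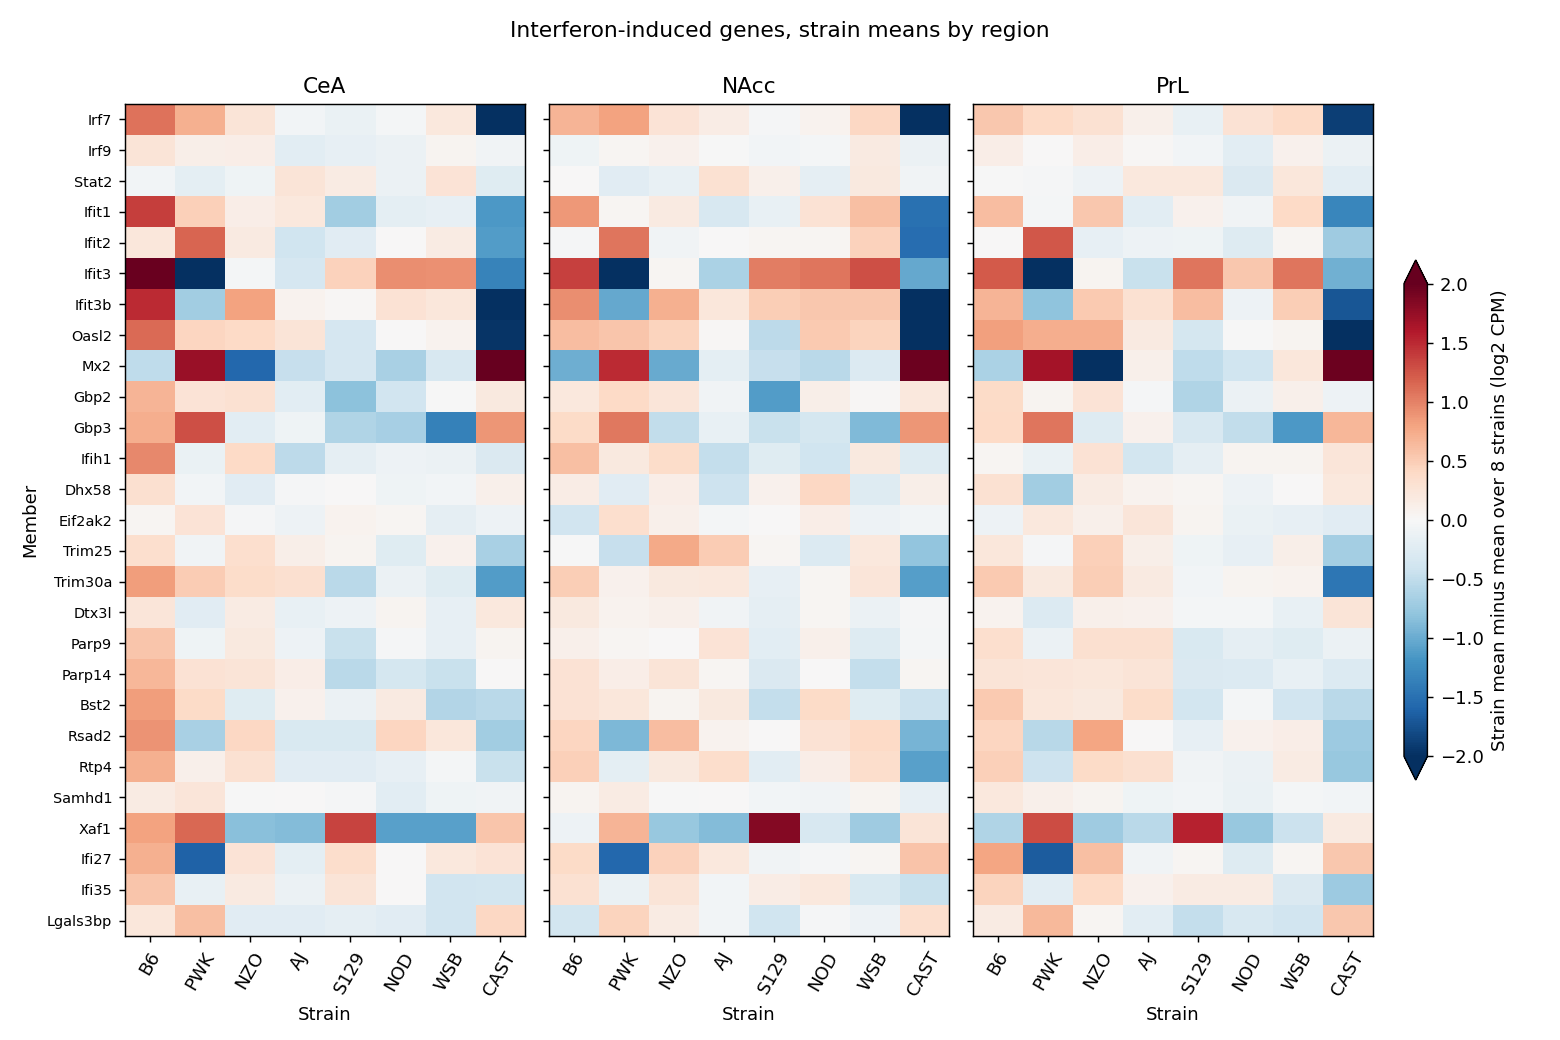
Rows are the 27 tested members, columns the 8 strains, and panels the 3 regions; colour gives the strain mean minus the mean over the 8 strains in log2 CPM, from blue (lower) to red (higher), with values beyond 2 drawn at the end of the scale. B6 is the highest strain for 19 members in the CeA, CAST is the lowest for Irf7, Ifit2, Ifit3b and Oasl2 in every region, and PWK is the lowest for Ifit3 and Ifi27 in every region.

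In B6, the members as a group were more often higher than lower relative to the low preference strains. In the CeA, 21 of 27 members were up-expressed in B6 against Low_Average (background 22.3% of genes) and 0 were down-expressed (18.8%; edgeR and DESeq2 also gave 0, and 0 at an unadjusted p below 0.05, but 2 were lower with the second run of tray 2 or with both runs added, and 1 with no filter on low counts or with CAST left out of Low_Average). Their median log2 fold change was 0.85, against 0.0071 for all genes. In the NAcc, 12 members were higher (17.3%) and 3 were lower (14.9%), namely Mx2, Eif2ak2 and Lgals3bp, with a median of 0.31 against 0.0081. In the PrL, 16 were higher (18.2%) and Xaf1 alone was lower (19.3%), with a median of 0.34 against -0.0031. Irf7, Ifit1, Ifit3, Ifit3b, Oasl2, Gbp3, Trim30a, Parp14, Bst2, Rtp4 and Ifi35, 11 members in all, were higher in B6 in all 3 regions, as were 6.06% of all genes, and 0 were lower in all 3 (4.83% of genes), none being lower in the CeA at an unadjusted p below 0.05. Without the CeA library of NZO mouse 26, 22 members were higher in the CeA and 0 lower. The PrL count fell to 9 without B6 mouse 25, to 10 without B6 mouse 33, to 10 with CAST left out of Low_Average and to 9 with sample quality weights. With AJ, NOD, NZO and S129 alone as Low_Average, 7 members were higher in the NAcc and 8 in the PrL. With the mouse as a block over all libraries, Xaf1 in the PrL (adjusted p = 0.0551) and Lgals3bp in the NAcc (adjusted p = 0.108) and the PrL (adjusted p = 0.215) did not pass, nor did Bst2 (adjusted p = 0.206) and Ifi35 (adjusted p = 0.0897) in the NAcc or Gbp2 in the PrL (adjusted p = 0.0651), and the numbers higher were 22, 10 and 14. The number of members higher in all 3 regions, 11 here, depended on the strains in Low_Average and on the weighting of libraries. With CAST left out, 4 members were higher in all 3 regions (Ifit3, Oasl2, Gbp3 and Ifi27), with sample quality weights 5 (Ifit3, Ifit3b, Oasl2, Gbp3 and Trim30a) and with the mouse as a block 9.

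In PWK, members were called both higher and lower than Low_Average, and the numbers lower were near or below the background share in every region. In the CeA 12 members were higher (20.1%) and 3 lower (19.1%), in the NAcc 10 were higher (20.0%) and 6 lower (18.7%), and in the PrL 9 were higher (23.9%) and 6 lower (23.2%). The medians were 0.30, 0.16 and 0.098 on the log2 scale, against 0.0072, 0.011 and 0.0065 for all genes. Of the members, 8 were higher in PWK in all 3 regions (Irf7, Ifit2, Oasl2, Mx2, Gbp3, Samhd1, Xaf1 and Lgals3bp), as were 11.1% of all genes, and 2, Ifit3 and Ifi27, were lower in all 3, as were 11.2%. Of the 8, Lgals3bp did not pass in the CeA without the library of PWK mouse 24 (adjusted p = 0.0613). With CAST left out of Low_Average, Oasl2 in the CeA (adjusted p = 0.143) and Irf7 in the PrL (adjusted p = 0.398) did not pass, and the other 6 stayed higher in all 3 regions, while 4 members were lower in all 3 (Ifit3, Ifit3b, Rsad2 and Ifi27). Both contrasts used the same Low_Average libraries. Without the CeA library of NZO mouse 26, the CeA counts of PWK were 13 higher and 4 lower. The number lower in the CeA was 6 with no filter on low counts and 5 with the filter of edgeR, with CAST left out of Low_Average or with AJ, NOD, NZO and S129 alone in it.

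**Figure D3:**
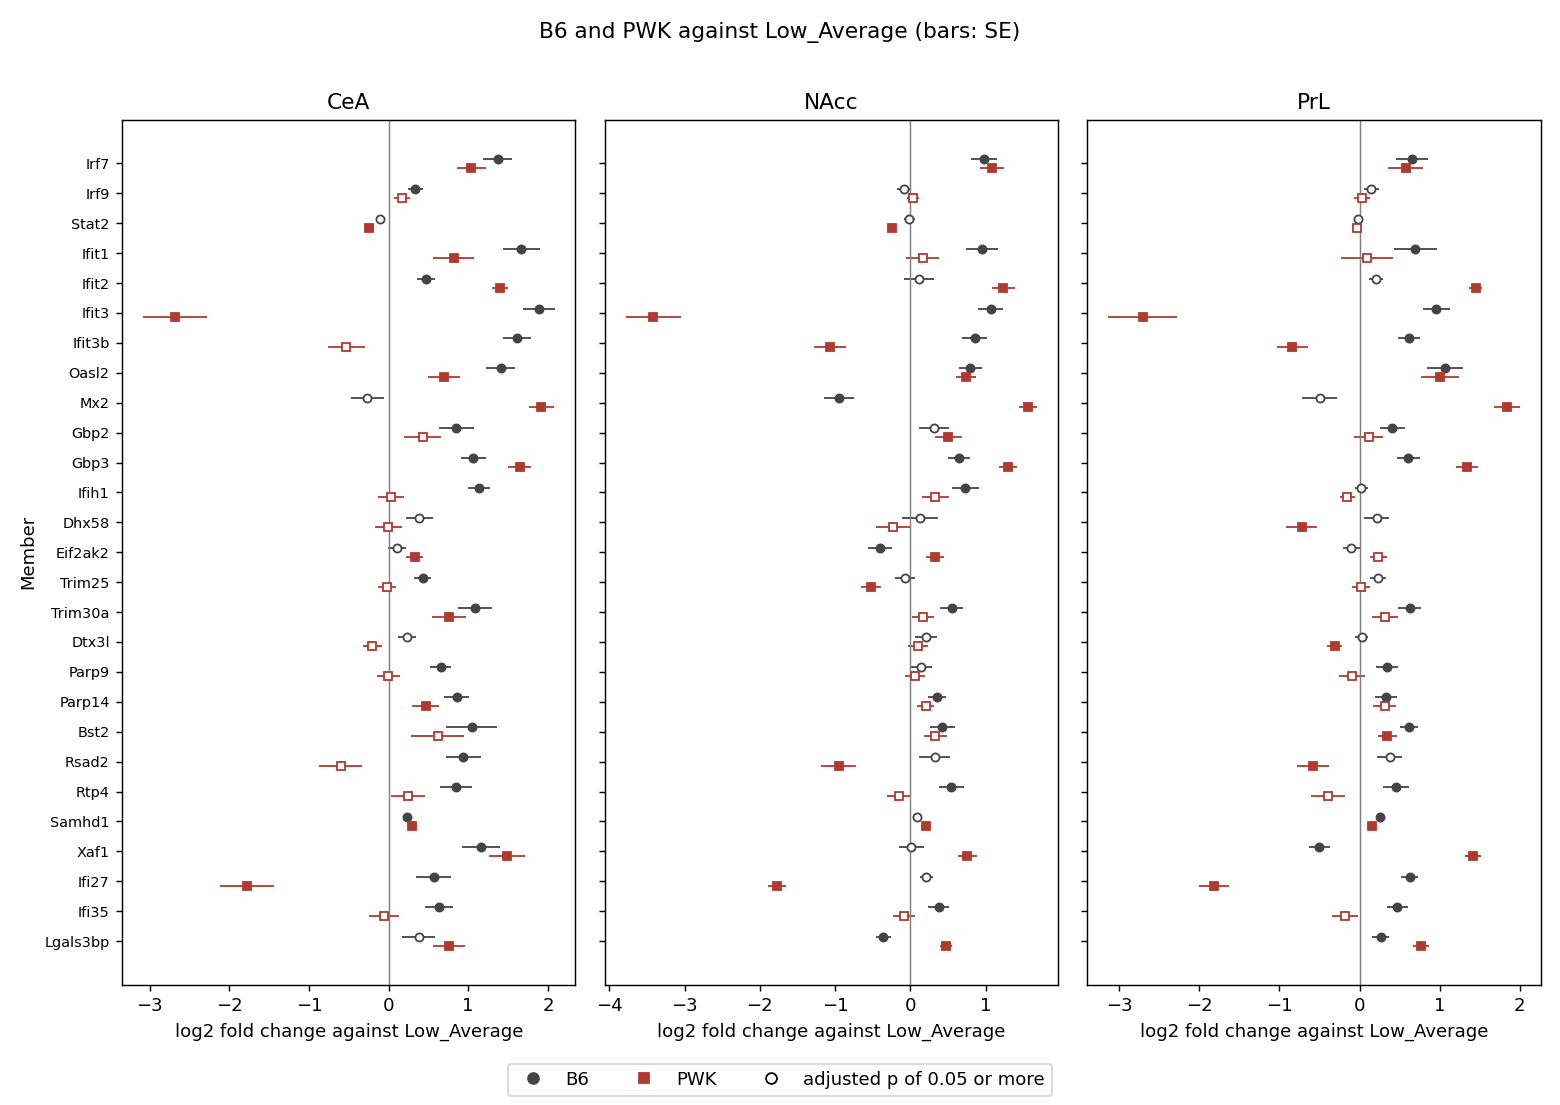
Points are the log2 fold changes (x axis, a scale per panel) of the 27 members (y axis) in B6 (circles) and PWK (squares) against Low_Average, with bars of 1 SE, in 3 panels for the regions; open symbols did not pass an adjusted p of 0.05. Most B6 points lie right of 0 in the CeA (21 filled, median 0.85), whereas PWK points spread from -2.68 for Ifit3 to 1.92 for Mx2 in the same panel.

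Among the transcription factors, Irf7, the interferon regulatory factor that amplifies the production of type I interferon, separated CAST from every other strain. In the CeA its level was 0.187 to 0.566 CPM in the 6 CAST libraries (median 0.246), and 2.06 to 3.52 CPM in B6 (median 2.56). PWK ran from 1.04 to 3.68 CPM (median 1.94) and the medians of the other 5 strains lay between 1.08 and 1.30 CPM. No CAST library overlapped with any library of another strain in the CeA. In the NAcc CAST held 0.0807 to 0.432 CPM and in the PrL 0.211 to 0.809 CPM against at least 0.888 and 0.846 CPM in the other 7 strains, so that CAST did not overlap with them there either. CAST was lower than each of the other 7 strains in all 3 regions, the definition of a unique DEG, with mean log2 fold changes of -2.35, -2.72 and -2.11 in the CeA, NAcc and PrL (largest of the 7 adjusted p-values 1.45e-05, 1.36e-07 and 0.000603). Reads of CAST can be lost at mismatches with the B6-based reference, and the part of this in its low values was not tested. The same holds for the low values of CAST and PWK in other genes below. Relative to Low_Average, which includes CAST, Irf7 was higher in B6 by 1.37 ± 0.18 (SE), 0.97 ± 0.17 and 0.65 ± 0.20 on the log2 scale, and in PWK by 1.04 ± 0.18, 1.08 ± 0.16 and 0.58 ± 0.21. With CAST left out, the differences in the CeA were 1.02 for B6 and 0.69 for PWK, and those in the PrL, 0.31 for B6 (adjusted p = 0.205) and 0.24 for PWK (adjusted p = 0.398), did not pass. The NAcc differences also become smaller without CAST, since it was the lowest strain there and lowers the mean of Low_Average. Irf9, the DNA-binding subunit of the complex, was higher in B6 in the CeA only by a small amount (0.34 ± 0.10, adjusted p = 0.00484) and did not pass the test in the NAcc (-0.085 ± 0.090) or the PrL (0.15 ± 0.095). Stat2, its partner, was lower in PWK in the CeA and the NAcc (-0.24 ± 0.053 and -0.25 ± 0.064), and did not pass the test in B6 in any region.

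Isg15, the ubiquitin-like modifier that interferon-induced enzymes attach to proteins, and Usp18 lay outside the log2 table. Isg15 was counted 3 to 12 times per library in CAST over the 3 regions, and 18 to 40 times in B6 in the CeA, 10 to 30 in the NAcc and 14 to 66 in the PrL. Usp18 had 1 to 9 counts per CAST library and 10 to 45 per B6 library. The libraries of B6 and CAST did not overlap for either gene on the CPM scale in the 3 regions: the lowest B6 values were 0.50 CPM of Isg15 in the NAcc, against a highest CAST value there of 0.42 CPM, and 0.46 CPM of Usp18, against 0.35 CPM; for Isg15 in the PrL the gap was 0.60 against 0.54 CPM. These are counts with no test.

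The IFIT proteins bind foreign RNA and hold back its translation, and their genes lie in a cluster on chromosome 19. All 4 measured IFIT genes were higher in B6 in the CeA, and Ifit1, Ifit3 and Ifit3b were in the other regions too, against 22.3%, 17.3% and 18.2% of all genes in the CeA, NAcc and PrL. Ifit3 had the widest range of strain means of the 27 tested members in the CeA and the NAcc. In the CeA it stood at 6.56 to 12.5 CPM in B6 (median 8.68), 3.18 to 5.91 in NOD (4.33), 3.40 to 5.17 in WSB (4.38) and 2.42 to 4.16 in S129 (3.24). The levels fell to 1.24 to 2.09 CPM in AJ (median 1.86), 0.655 to 1.29 in CAST (0.816) and 0.179 to 0.586 in PWK (0.412), with NZO at 1.03 to 2.41 CPM apart from mouse 26 at 11.95 CPM. Leaving that library aside, the 6 B6 libraries lay above those of all other strains in the CeA, and the 6 PWK libraries lay below those of all other strains. The strain means spanned 23.3-fold in the CeA, 22.6-fold in the NAcc and 13.6-fold in the PrL, and Ifit3 alone among the 27 tested members spanned more than 8-fold in every region. Against Low_Average, B6 was higher by 1.89 ± 0.20 on the log2 scale in the CeA (adjusted p = 2.81e-10), 1.06 ± 0.17 in the NAcc and 0.96 ± 0.17 in the PrL, whereas PWK was lower, at -2.68 ± 0.40 (SE), -3.42 ± 0.37 and -2.71 ± 0.43. Without NZO mouse 26, the CeA values were 1.97 for B6 and -2.62 for PWK. In the order of strains in the CeA (B6, NOD, WSB, S129, NZO, AJ, CAST, PWK), B6 and NOD were the only neighbours that differed in the pairwise test over 28 pairs.

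Ifit3b, the neighbouring copy, had a different lowest strain. Its CeA level was 0.321 to 0.978 CPM in CAST (median 0.447), 0.677 to 2.59 in PWK (1.56) and 6.15 to 8.30 in B6 (6.73). CAST was the lowest strain in all 3 regions, with mean log2 fold changes against the other strains of -2.54, -2.72 and -1.90. B6 was above Low_Average by 1.62 ± 0.18, 0.85 ± 0.17 and 0.61 ± 0.13, of which the last 2 did not pass with CAST left out of Low_Average (0.37 and 0.28, adjusted p = 0.0713 and 0.0916), and PWK was lower in the NAcc (-1.06 ± 0.21) and the PrL (-0.84 ± 0.19) but did not pass the test in the CeA (-0.53 ± 0.24, adjusted p = 0.0730), where it passed with CAST left out (-0.95, adjusted p = 0.00143). Reads of the 2 copies can be assigned to either or dropped as ambiguous, and reads of strains that differ from the B6-based reference can be lost at mismatches, so the values of Ifit3 and Ifit3b are uncertain, and how far this moved them was not tested.

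Ifit2 was highest in PWK and lowest in CAST. In the PrL it ran from 23.8 to 38.8 CPM in PWK (median 31.7), from 5.96 to 10.3 CPM in CAST (median 7.85) and from 9.65 to 16.4 CPM in the other 6 strains, so that PWK did not overlap with any other strain. In the CeA PWK held 15.3 to 23.8 CPM (median 20.2) and CAST 3.73 to 4.63 CPM (median 4.19), and in the NAcc 12.1 to 20.9 CPM and 1.73 to 3.39 CPM. PWK was the highest and CAST the lowest strain against each of the other 7 in all 3 regions (unique DEG in both directions). The log2 fold change of PWK against Low_Average was 1.40 ± 0.10, 1.23 ± 0.15 and 1.45 ± 0.080 in the CeA, NAcc and PrL (adjusted p = 3.57e-19 in the last), whereas B6 passed the test in the CeA only (0.47 ± 0.12).

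Ifit1 was highest in B6. In the CeA it stood at 1.58 to 4.17 CPM in B6 (median 2.68), 1.04 to 2.97 in PWK (1.34) and 0.184 to 0.755 in CAST (0.517). The 36 Low_Average libraries had a median of 0.932 CPM and reached 5.84 CPM in NZO mouse 26, so the groups overlapped. B6 was higher by 1.67 ± 0.23 on the log2 scale in the CeA (adjusted p = 2.03e-07), 0.95 ± 0.21 in the NAcc and 0.70 ± 0.27 in the PrL (adjusted p = 0.0358). The PrL difference did not pass without B6 mouse 25 (0.41, adjusted p = 0.264) or mouse 33 (0.61, adjusted p = 0.1005), with sample quality weights (0.40, adjusted p = 0.352) or with CAST left out of Low_Average (0.47, adjusted p = 0.173). In the NAcc the 5 B6 libraries were at 2.157, 2.41, 2.09, 3.388 and 1.998 CPM and CAST at 0.105 to 0.686 CPM, and CAST was a unique DEG there. WSB reached 3.11 CPM in the NAcc, above 4 of the 5 B6 libraries, and 7.71 CPM in the PrL, above all 6, so the groups overlapped there too.

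**Figure D4:**
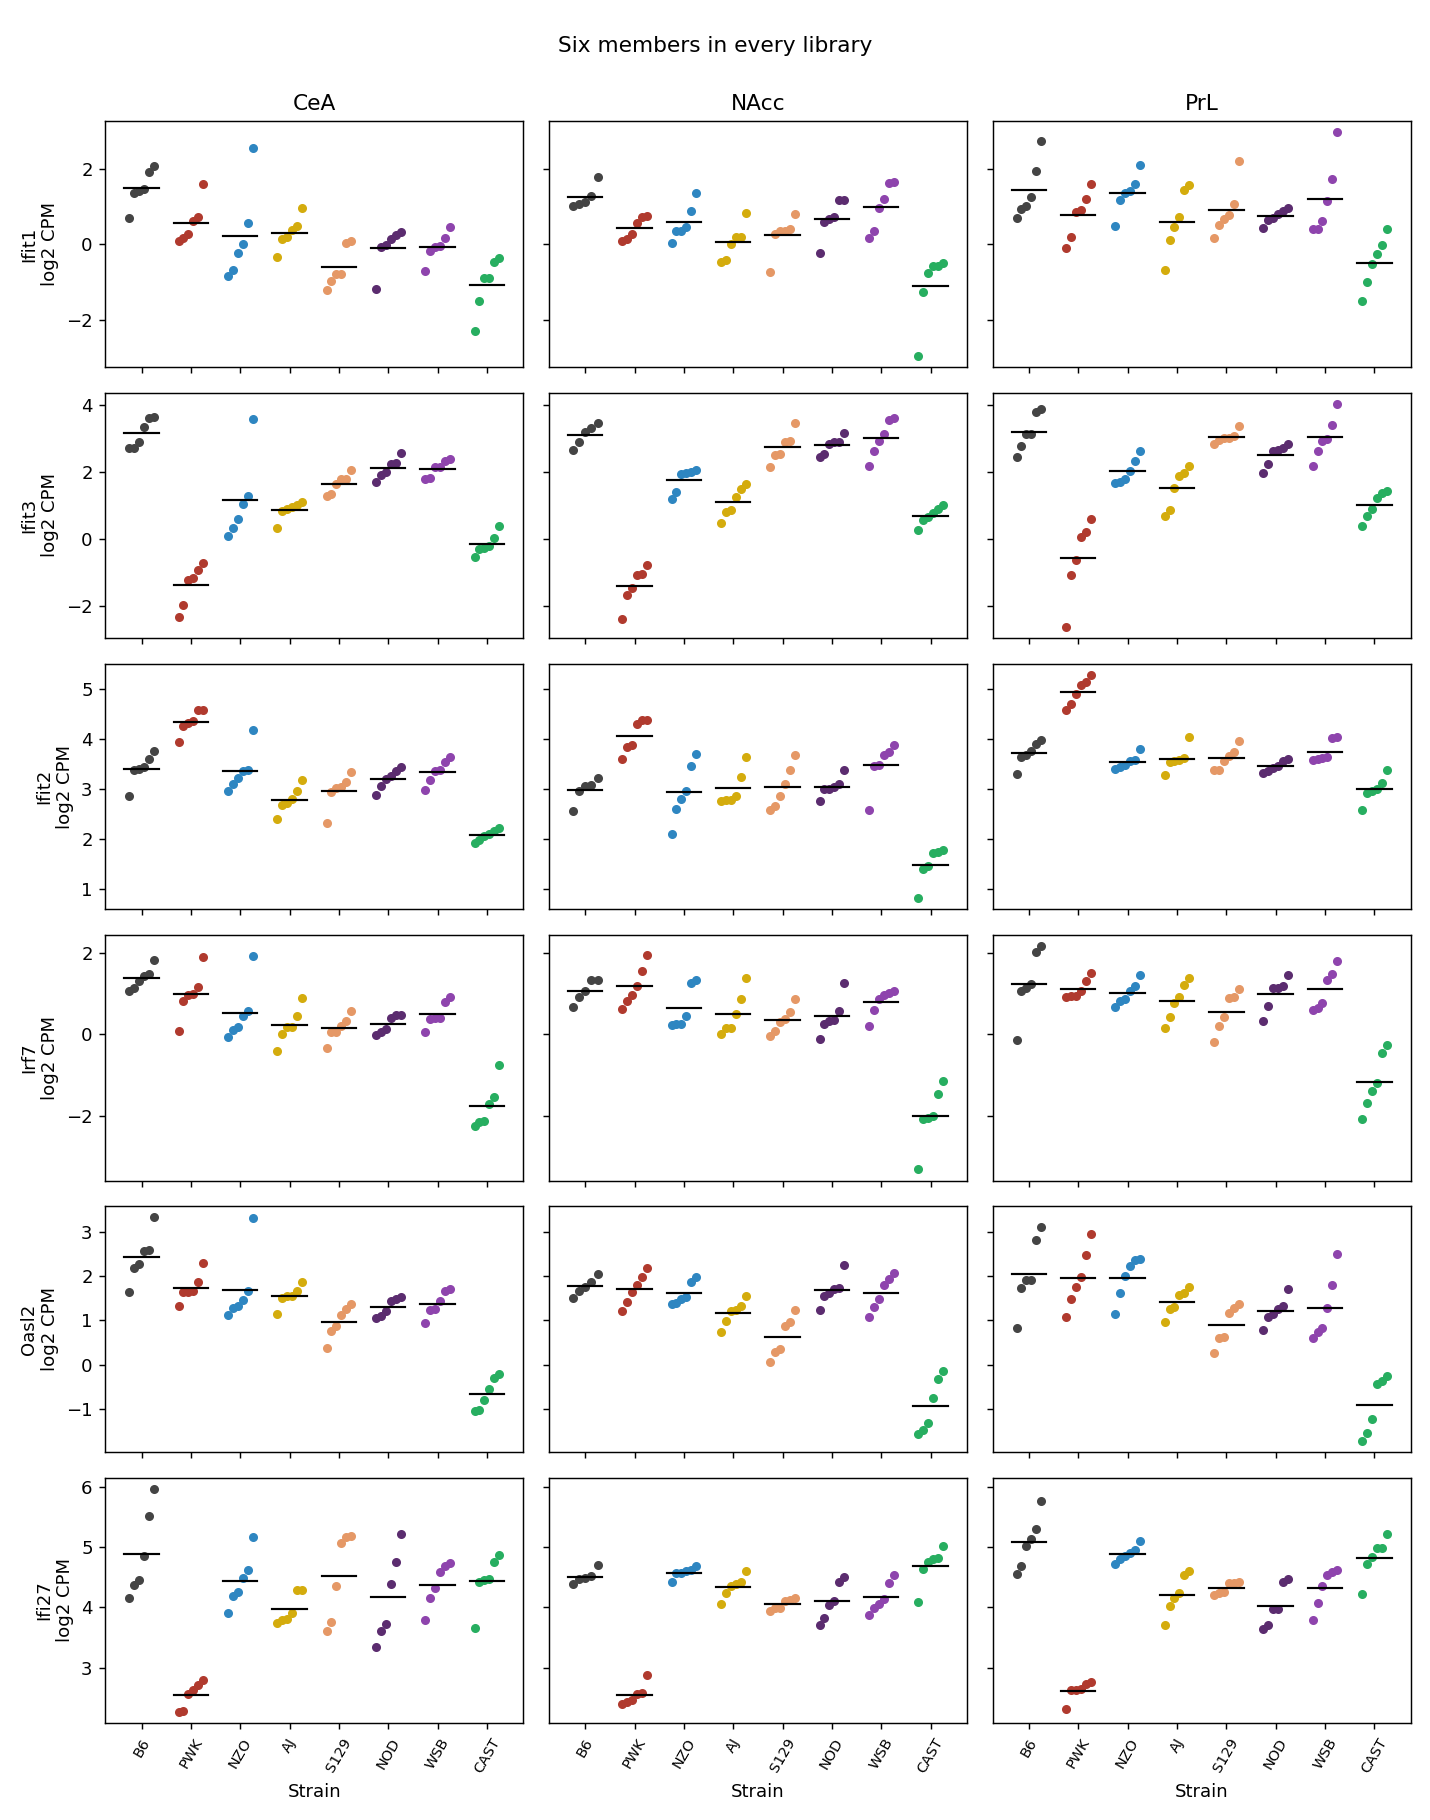
Each point is 1 library, with bars at the strain mean; rows are Ifit1, Ifit3, Ifit2, Irf7, Oasl2 and Ifi27, columns the regions, and the y axis is log2 CPM. Ifit3 and Ifi27 are lowest in PWK and Irf7 and Oasl2 lowest in CAST in all 3 regions, Ifit2 is highest in PWK, and the lone high NZO point in the CeA panels is mouse 26 (Ifit3 11.95 CPM against at most 2.408 CPM).

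The oligoadenylate synthetases make the second messenger that activates RNase L, and the OASL proteins are their relatives. Oasl2 was the 1 member of the family in the log2 table. It was lowest in CAST, at 0.459 to 0.843 CPM in the CeA (median 0.607), 0.314 to 0.887 in the NAcc (0.474) and 0.282 to 0.819 in the PrL (0.563). B6 held 3.11 to 9.98 CPM in the CeA (median 5.35), the 5 NAcc libraries of B6 were at 3.611, 2.827, 3.36, 4.134 and 3.132 CPM, and the PrL libraries lay between 1.75 and 8.62 CPM. CAST did not overlap with any other strain in any region, the nearest libraries being S129 at 1.28, 1.02 and 1.17 CPM. CAST was a unique DEG in all 3 regions, with mean log2 fold changes of -2.22, -2.33 and -2.43, and B6 was one too in the CeA, higher by a mean of 1.31. B6 was higher than Low_Average by 1.41 ± 0.18, 0.80 ± 0.15 and 1.07 ± 0.22, and PWK by 0.69 ± 0.20, 0.74 ± 0.14 and 1.01 ± 0.24. With CAST taken out of Low_Average, the PWK difference in the CeA was 0.36 (adjusted p = 0.143). The other differences of B6 and PWK also become smaller, since CAST lowers that mean, and B6 still passed in all 3 regions.

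Among the synthetases with counts only, Oas1a had 7, 10 and 11 counts in total over the 6 CAST libraries of the CeA, NAcc and PrL and 20, 25 and 8 over those of PWK, against 71, 53 (5 libraries) and 102 in B6. Oas1b, whose allele is known to set resistance to flaviviruses in mice, had its highest medians in WSB (0.850, 1.14 and 0.877 CPM) and CAST (0.780, 0.644 and 0.650 CPM), and no other strain median passed 0.544 CPM. Oas2 was counted 0 to 2 times in every PWK library and had its highest strain median in B6 (0.553, 0.695 and 0.740 CPM). Oas3 and Oasl1 did not exceed 11 and 20 counts in any library. For scale, 3 counts correspond to 0.0999 to 0.232 CPM depending on the library, so that a library at or below that level carries no ordering. The Oas1 genes form a cluster of close copies and share the uncertainty described for Ifit3 and Ifit3b.

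The large GTPases among the members were the Mx and guanylate-binding proteins. Mx2 was highest in the wild-derived strains CAST and PWK and lowest in NZO. In the CeA it stood at 4.48 to 8.29 CPM in CAST (median 6.46), 3.07 to 6.25 in PWK (5.43) and 0.185 to 1.21 in NZO (0.452), and no library of the other 5 strains exceeded 1.70 CPM. In the PrL the same strains were at 4.77 to 5.35, 3.04 to 5.31 and 0.0773 to 0.629 CPM, against at most 2.88 CPM in the rest. CAST and PWK did not overlap with the other 6 strains in these regions, nor in the NAcc, where they held at least 6.34 and 4.20 CPM against at most 2.06 CPM. PWK was above Low_Average by 1.92 ± 0.15, 1.56 ± 0.12 and 1.84 ± 0.16 on the log2 scale in the CeA, NAcc and PrL although CAST is part of that mean. B6 was lower in the NAcc (-0.95 ± 0.20, adjusted p = 0.000209), whereas -0.27 ± 0.21 in the CeA and -0.50 ± 0.22 in the PrL did not pass. CAST, the highest strain, raises the mean of Low_Average in these contrasts. In the pairwise test in the CeA, B6 was lower than CAST (log2 fold change -2.61) and PWK (-2.19) and higher than NZO (1.11). B6 did not differ from AJ, S129, NOD or WSB in that test. NZO was lower than each other strain in the CeA and the PrL (mean log2 fold changes -1.81 and -2.64). Mx1, its paralogue, lay outside the log2 table and had another strain order: NZO held 12 to 221 counts in the CeA (the highest from mouse 26), 19 to 64 in the NAcc and 24 to 88 in the PrL, PWK 24 to 59 and CAST 13 to 44 over the 3 regions. In the other 5 strains the medians lay between 0.0453 and 0.442 CPM.

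Gbp3, a guanylate-binding protein, was highest in PWK, CAST and B6. In the CeA PWK ran from 6.04 to 11.7 CPM (median 8.26), CAST from 4.80 to 8.96 (6.64), B6 from 4.31 to 9.09 (6.05) and WSB, the lowest, from 1.04 to 1.81 (1.35). WSB did not overlap with any other strain in the CeA, and B6, CAST and PWK overlapped with each other. The log2 fold changes against Low_Average were 1.06 ± 0.16, 0.64 ± 0.14 and 0.61 ± 0.15 in B6 and 1.65 ± 0.14, 1.30 ± 0.12 and 1.34 ± 0.14 in PWK in the CeA, NAcc and PrL. Gbp2, its neighbour on chromosome 3, was higher in B6 in the CeA (0.85 ± 0.22) and the PrL (0.41 ± 0.16) and in PWK in the NAcc (0.50 ± 0.17), and S129 was its lowest strain against each other strain in the NAcc.

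The sensors of double-stranded RNA followed no common pattern. Ifih1, which encodes MDA5, was higher in B6 in the CeA by 1.14 ± 0.14 (adjusted p = 1.03e-08) and in the NAcc by 0.73 ± 0.18, and was at 0.024 ± 0.084 in the PrL. In the CeA B6 held 3.22 to 7.62 CPM (median 4.77) against strain medians of 1.5953 to 2.8348 CPM elsewhere, and in the PrL 5.37 to 6.59 CPM (median 5.94) against 4.29 to 6.87 CPM. B6 was thus the highest strain in the CeA, where it was above each of the other 7 in the pairwise test, and stood within the range of the others in the PrL. Dhx58, the regulator LGP2, passed the test only as lower in PWK in the PrL (-0.72 ± 0.19). Eif2ak2, the kinase PKR, was lower in B6 in the NAcc (-0.41 ± 0.16) and higher in PWK in the CeA (0.33 ± 0.11) and the NAcc (0.32 ± 0.12). Zbp1, a sensor of Z-form nucleic acid, reached at most 15 counts in a library and had at most 3 in 118 libraries.

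Of the ubiquitin ligases and ADP-ribosyltransferases, 4, 2 and 3 of 5 were higher in B6 in the CeA, NAcc and PrL, against 22.3%, 17.3% and 18.2% of all genes. Trim30a was higher in B6 by 1.09 ± 0.21, 0.55 ± 0.15 and 0.63 ± 0.14, and with CAST left out of Low_Average the NAcc value was 0.35 (adjusted p = 0.0708). In the PrL it ran from 0.289 to 1.08 CPM in CAST (median 0.575) and from 1.11 to 3.67 CPM in the other 7 strains, so that CAST did not overlap with them, and CAST was the unique DEG in the NAcc and the PrL. Parp14 was higher in B6 by 0.85 ± 0.16, 0.35 ± 0.12 and 0.33 ± 0.14, and Parp9, which pairs with the ligase Dtx3l, by 0.66 ± 0.13 in the CeA and 0.34 ± 0.14 in the PrL. With CAST left out of Low_Average or with sample quality weights, Parp14 lost its call in the PrL only (adjusted p = 0.0829 and 0.453). Trim25, the ligase that activates RIG-I, was higher in B6 in the CeA (0.43 ± 0.11) and lower in PWK in the NAcc (-0.53 ± 0.13), and CAST was its unique DEG in the PrL (mean log2 fold change -0.76). Dtx3l passed the test only as lower in PWK in the PrL (-0.31 ± 0.096).

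Ifi27, a mitochondrial and nuclear envelope protein, was low in PWK. In the NAcc it stood at 5.25 to 7.33 CPM in PWK (median 5.70), and at 13.1 to 32.5 CPM in the 36 Low_Average libraries (median 20.7). The PWK libraries lay below all Low_Average libraries in the CeA (4.80 to 6.95 against at least 10.1 CPM) and in the PrL (4.96 to 6.75 against at least 12.5 CPM) as well. PWK was the unique DEG in all 3 regions, and its log2 fold change against Low_Average was -1.78 ± 0.34 in the CeA, -1.77 ± 0.12 in the NAcc (adjusted p = 1.27e-15) and -1.81 ± 0.19 in the PrL. B6 was higher in the PrL (0.63 ± 0.11) and in the CeA (0.56 ± 0.22), the latter with an adjusted p of 0.0406 that rose to 0.302 (difference 0.30) without mouse 1, whose CeA library held 20168 CPM of oligodendrocyte and 8713 CPM of choroid plexus transcripts, whose part was not tested.

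Xaf1, a partner of the apoptosis inhibitor XIAP, was highest in S129. In the NAcc S129 ran from 15.4 to 30.4 CPM (median 17.7) and PWK from 7.94 to 11.4 CPM (median 8.41), and no other strain exceeded 8.44 CPM, so S129 did not overlap with any strain. PWK was above Low_Average by 1.49 ± 0.23, 0.76 ± 0.13 and 1.42 ± 0.10 (adjusted p = 9.87e-16 in the PrL). B6 was higher in the CeA (1.16 ± 0.24) and lower in the PrL (-0.50 ± 0.13), with 6.08 to 12.3 CPM in the CeA (median 6.70) and 2.34 to 4.99 CPM in the PrL (median 3.54). S129, the highest strain in each region, raises the mean of Low_Average in these contrasts. Relative to the mean over the 8 strains, the log2 means in the PrL were -0.59 in B6, -0.71 in NZO, -0.75 in NOD, -0.54 in AJ and -0.43 in WSB. Those of CAST, PWK and S129 were 0.18, 1.30 and 1.54. CAST spread widely in the CeA, from 1.87 to 13.2 CPM.

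Among the other effectors, Bst2, the protein tetherin that holds budding virus at the cell surface, was higher in B6 by 1.04 ± 0.32, 0.42 ± 0.17 and 0.62 ± 0.11 in the CeA, NAcc and PrL. Rtp4 was higher by 0.85 ± 0.20, 0.54 ± 0.16 and 0.46 ± 0.17, and Ifi35 by 0.64 ± 0.17, 0.37 ± 0.14 and 0.47 ± 0.13. With CAST left out of Low_Average, none of Bst2, Rtp4 and Ifi35 passed in the NAcc (adjusted p = 0.0914, 0.105 and 0.118). Rsad2, the antiviral enzyme viperin, was higher in B6 in the CeA (0.94 ± 0.22) and lower in PWK in the NAcc (-0.95 ± 0.23) and the PrL (-0.58 ± 0.20). Samhd1, a hydrolase of deoxynucleotides, had small differences, of 0.23 ± 0.053 and 0.26 ± 0.053 in B6 (CeA, PrL) and 0.30 ± 0.052, 0.20 ± 0.040 and 0.15 ± 0.056 in PWK. Lgals3bp, a secreted galectin ligand, was higher in PWK in the 3 regions (0.75 ± 0.20, 0.47 ± 0.082 and 0.77 ± 0.10), but in the CeA mouse 24 stood at 131.5 CPM against at most 38.1 CPM in the other PWK libraries, and without it the difference was 0.42 (adjusted p = 0.0613). That library held 9420.5 CPM of choroid plexus transcripts, and their part in it was not tested.

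Ifi44, an antiviral protein with counts only, was all but absent from CAST. In 17 of the 18 CAST libraries it had 0 counts, with a total of 1 count, and in none of the other 125 libraries was it at 0 (2 to 50 counts). The highest medians were those of AJ (1.26, 1.25 and 1.24 CPM in the CeA, NAcc and PrL) and WSB (0.885, 0.972 and 1.15 CPM). Whether reads of CAST failed to align to Ifi44 was not tested.

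**Figure D5:**
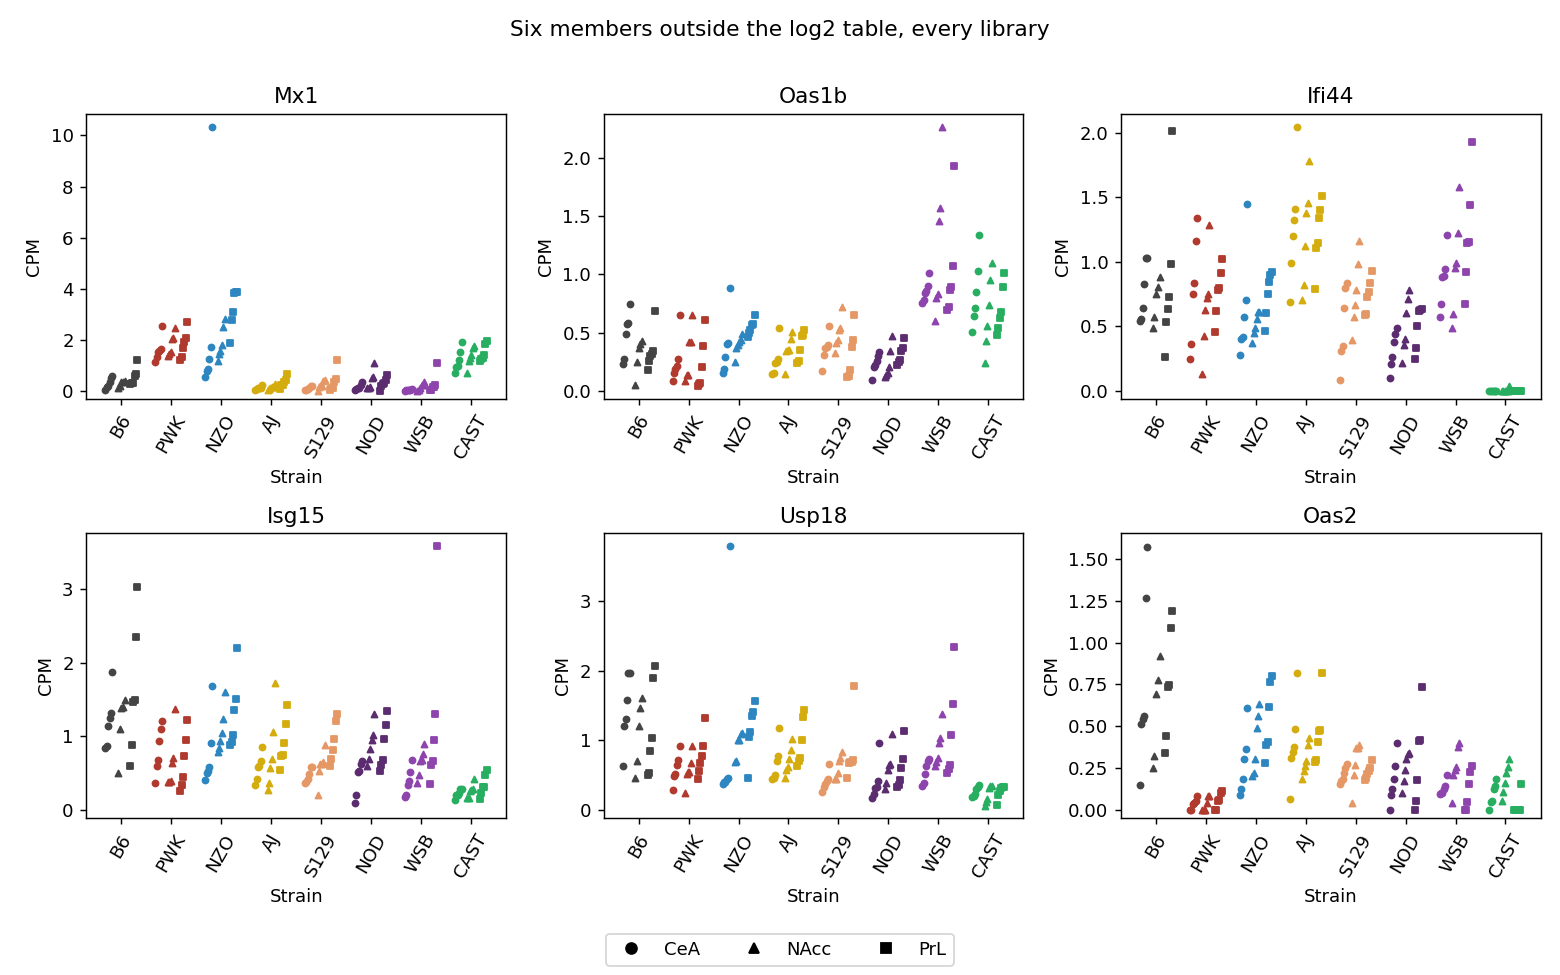
Points are libraries in CPM (y axis, a scale per panel) by strain (x axis) for Mx1, Oas1b, Ifi44, Isg15, Usp18 and Oas2, with a marker shape for each region. Mx1 is high in NZO, PWK and CAST, with NZO mouse 26 in the CeA at 10.32 CPM, Ifi44 is at 0 in 17 of 18 CAST libraries, and Oas2 does not exceed 2 counts in PWK.

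In the pairwise comparisons, 9 members were unique DEGs of some strain in the CeA (background 19.2% of genes), 12 in the NAcc (17.7%) and 9 in the PrL (27.0%). B6 had 5 in the CeA, all higher (Ifit1, Ifit3, Ifit3b, Oasl2 and Ifih1), and 0 in the NAcc and the PrL, where B6 was a higher unique DEG for 1.9%, 1% and 1.26% of all genes in the 3 regions. CAST had 4 lower in the CeA, 7 lower and 1 higher (Mx2) in the NAcc, and 6 lower in the PrL. CAST was a lower unique DEG for 3.27%, 3.24% and 4.76% of all genes in those regions. A gene can be a unique DEG of more than 1 strain. Without the CeA library of NZO mouse 26, 12 members were unique DEGs in the CeA.

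Transcripts of several cell types moved with B6 in the CeA. Of the tested oligodendrocyte markers 5 of 5 were higher there (median log2 fold change 1.46), with the summed level of 8 markers, led by Mbp, at a median of 9294 CPM in B6 against 2267 to 5656 CPM in the other strains. Endothelial markers were higher in 9 of 10 (median 0.50, led by Flt1), microglial markers in 8 of 14 (0.44, led by Csf1r), pericyte and smooth muscle markers in 5 of 8 (0.47, led by Rgs5) and astrocyte markers in 5 of 7 (0.35). Over all genes, 22.3%, 17.3% and 18.2% were higher and 18.8%, 14.9% and 19.3% lower in B6 in the CeA, NAcc and PrL. For PWK these shares were 20.1%, 20.0% and 23.9% higher and 19.1%, 18.7% and 23.2% lower. In the PrL, where 16 members were also higher in B6, oligodendrocyte markers were higher in 2 of 5 (median 0.65), endothelial in 2 of 10 (0.11) and microglial in 7 of 14 (0.16). In the NAcc these lists had 0 of 5, 7 of 10 and 7 of 14 higher in B6. In both the NAcc and the PrL, 1 microglial marker was lower in B6. Of 7 astrocyte markers, 0 were higher and 2 lower in B6 in the NAcc, and 1 was higher and 1 lower in the PrL. The 2 of 10 endothelial markers higher in the PrL are near the share of all genes. Of 8 pericyte and smooth muscle markers, 4 were higher and 0 lower in B6 in the NAcc, and 3 higher and 1 lower in the PrL. Of 7 markers of cortical glutamatergic neurons, 2, 1 and 6 were lower and 0, 2 and 0 higher in B6 in the CeA, NAcc and PrL (median log2 fold changes -1.07, 0.78 and -0.53). Of 8 markers of central amygdala neurons, 1, 0 and 4 were higher and 0, 1 and 1 lower in B6 in the CeA, NAcc and PrL. In PWK, astrocyte markers were higher in 5, 4 and 1 of 7 in the CeA, NAcc and PrL. Microglial markers of PWK were 6 higher and 2 lower of 14 in the CeA, 2 and 4 in the NAcc and 5 and 4 in the PrL, and endothelial markers 5 and 0 of 10, 1 and 2, and 4 and 2. In the NAcc of PWK, 3 of 5 oligodendrocyte and 4 of 8 pericyte and smooth muscle markers were lower. Of 7 cortical glutamatergic markers, 0, 2 and 0 were higher and 1, 0 and 0 lower in PWK in the CeA, NAcc and PrL. Their medians were -0.52, 1.23 and 0.0099. Of 6 markers of striatal projection neurons, 0, 0 and 3 were higher and 0 lower in PWK (medians 0.47, -0.63 and 0.98). In B6, 0, 2 and 1 of those 6 were higher and 0 lower (medians 0.69, 0.79 and 0.54). Of 12 T cell and leukocyte markers 9 were under 0.1 CPM on average in the CeA, but Cd4, the most abundant, averaged 30.3 CPM there. The part of cell composition in the differences of the members was not tested. The libraries had been prepared in 3 trays with all strains in each, and the median difference over members between B6 and Low_Average was 1.13, 0.42 and 0.80 within the 3 trays in the CeA, 0.16, 0.26 and 0.30 in the NAcc and 0.24, 0.55 and 0.33 in the PrL. For PWK the values were 0.28, 0.31 and 0.24, then 0.19, 0.36 and 0.13, and 0.042, 0.18 and 0.045. Each value rests on 2 libraries of B6 or PWK, except 1 for B6 in tray 2 of the NAcc, and is not adjusted for sex. In the CeA the B6 libraries of tray 1 were from males and those of tray 3 from females, and tray 3 also held NZO mouse 26.

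Marker genes of cortex and striatum followed the region labels, whereas those of central amygdala neurons did not separate the CeA from the NAcc. Slc17a7, the vesicular glutamate transporter of cortical neurons, averaged 2137 CPM in the PrL, 988 in the CeA and 57.8 in the NAcc, and 8 striatal transcripts summed to 5167 CPM in the NAcc, 2724 in the CeA and 346 in the PrL. The 8 transcripts of central amygdala neurons, led by Sst, summed to 548, 568 and 319 CPM in the CeA, NAcc and PrL, and 3 were higher and 3 lower in the CeA than in the NAcc. Prkcd, Sst and Ezr were higher, at 1.02, 0.62 and 0.25 on the log2 scale, and Dlk1, Cartpt and Crh lower, at -1.72, -1.31 and -0.53. Over the 8 strains, more members were lower than higher in the CeA relative to the PrL. In the CeA 4 members were higher (38.8% of genes) and 17 lower (35.1%) than in the PrL, with a median log2 difference of -0.28 against 0.014 for all genes. In the NAcc 7 were higher (44.1%) and 11 lower (38.4%) than in the PrL, the latter near the background, and between the CeA and the NAcc 4 were higher (33.2%) and 12 lower (35.9%) in the CeA. Without the CeA library of NZO mouse 26, 3 were higher and 13 lower in the CeA than in the NAcc, and 13 were lower in the NAcc than in the PrL. Ifih1 had the largest difference, lower than in the PrL, at -1.20 ± 0.064 on the log2 scale in the CeA and -1.36 ± 0.066 in the NAcc. Ifit3 was lower in the CeA than in the PrL (-0.79 ± 0.12) and than in the NAcc (-0.53 ± 0.13), and Ifit1, Ifit2, Rsad2, Bst2 and Irf7 were lower in the CeA than in the PrL (-0.69, -0.52, -0.53, -0.41 and -0.42). Lgals3bp went the other way, higher in the CeA (0.74 ± 0.075) and the NAcc (0.64 ± 0.076) than in the PrL, as did Samhd1 (0.40 ± 0.024 and 0.60 ± 0.024). Trim25 was lower in the CeA than in the NAcc (-0.45 ± 0.053), and Dtx3l (-0.70 ± 0.053) and Ifit2 (-0.70 ± 0.064) were lower in the NAcc than in the PrL. Oligodendrocyte markers were 5 of 5 higher in the CeA than in the PrL, microglial markers 3 of 14 higher and 2 lower, endothelial markers 7 of 10 lower, pericyte and smooth muscle markers 8 of 8 lower and erythrocyte markers 5 of 5 lower. In the CeA relative to the NAcc, 12 of 14 microglial, 5 of 5 oligodendrocyte and 8 of 10 endothelial markers were lower. In the NAcc relative to the PrL, 12 of 14 microglial and 5 of 5 oligodendrocyte markers were higher and 4 of 10 endothelial markers lower. The part of these cells was not tested.

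Whether the strain differences themselves differed between regions was tested over all libraries. The strain-by-region interaction passed for 8 members (34.6% of genes): Ifit2, Ifit3, Ifit3b, Mx2, Ifih1, Trim25, Samhd1 and Xaf1. The B6 difference from Low_Average differed between regions for 9 members (29.8%) and the PWK difference for Trim25 alone (4.56%), shares near the background. With sample quality weights, 18 members passed the interaction and 3 the PWK test. For Xaf1, B6 was 1.16 above Low_Average in the CeA and at -0.50 in the PrL (adjusted p of the difference between regions 1.11e-05), and for Ifih1 the B6 difference was 1.14 in the CeA and 0.024 in the PrL (2.70e-06). Irf7 (adjusted p = 0.0566) and Oasl2 (0.187) did not pass. Without the CeA library of NZO mouse 26, 12 members passed the interaction and 12 the B6 test. Leaving out B6 mouse 1 left 4 members in the B6 test and leaving out B6 mouse 33 left 5, and leaving out B6 mouse 25 gave 16.

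Females and males did not differ by the test. No member passed in the CeA, NAcc or PrL (0 of 27 each, against 0.135%, 0.0812% and 0.0947% of genes), and edgeR and DESeq2 also called 0. At an unadjusted p below 0.05 there were 1, 3 and 1 members (Ifi35 in the CeA, Irf7, Bst2 and Samhd1 in the NAcc, Dtx3l in the PrL).

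The ligands were not measurable at this depth. Over all libraries, 9 interferon genes summed to 0 to 8 counts each: 8 for Ifna2, 8 for Ifng, 5 for Ifne, 4 for Ifnk, 1 for Ifnb1 and 0 for Ifna1, Ifna4, Ifnl2 and Ifnl3. Of the receptor chains, Ifnar1 was slightly lower in PWK in all 3 regions (-0.10 ± 0.037, -0.11 ± 0.034 and -0.11 ± 0.028), and Il10rb was higher in B6 in the CeA (0.55 ± 0.10). Of 5 tested chains, 1, 0 and 2 were higher and 0, 0 and 1 lower in B6 in the CeA, NAcc and PrL, and 2, 0 and 0 higher and 1, 1 and 3 lower in PWK. Of 5 kinases and STAT proteins, 2, 1 and 3 were higher and 1, 0 and 1 lower in B6 in the CeA, NAcc and PrL. In PWK 3, 1 and 4 of them were higher and 1, 1 and 1 lower. Among these, Tyk2 was higher in PWK in all 3 regions (0.38 ± 0.065, 0.31 ± 0.074 and 0.33 ± 0.057), and Stat3 was lower (-0.34 ± 0.053, -0.36 ± 0.043 and -0.35 ± 0.049). Tyk2 was also higher in B6 in the NAcc (0.24 ± 0.083) and the PrL (0.29 ± 0.056), and Stat3 in the CeA (0.19 ± 0.052) and the PrL (0.13 ± 0.046). Jak1 was lower in B6 in the CeA (-0.21 ± 0.058) and higher in PWK in the PrL (0.15 ± 0.042), and Jak2 was lower in B6 in the PrL (-0.16 ± 0.042) and higher in PWK in the CeA (0.30 ± 0.050) and the PrL (0.21 ± 0.042). Of 5 other interferon regulatory factors, 3, 1 and 1 were higher and 0 lower in B6 in the CeA, NAcc and PrL, and 3, 2 and 2 higher and 0, 0 and 1 lower in PWK. The shares of all genes were 22.3%, 17.3% and 18.2% higher and 18.8%, 14.9% and 19.3% lower in B6. For PWK these shares were 20.1%, 20.0% and 23.9% higher and 19.1%, 18.7% and 23.2% lower. Counts of 1 in 5 are near them. Irf3, the factor that starts interferon production, was higher in B6 in the 3 regions (0.65 ± 0.11, 0.35 ± 0.092 and 0.44 ± 0.087), and Irf5 was higher in PWK (0.84 ± 0.11, 0.36 ± 0.12 and 0.55 ± 0.091).

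Among sensors and adaptors, Tlr3, the endosomal receptor for double-stranded RNA, was lower in PWK in every region (-0.73 ± 0.11, -1.03 ± 0.099 and -1.35 ± 0.16) and higher in B6 in the CeA (0.71 ± 0.089) and the NAcc (0.25 ± 0.086). The list had 5, 2 and 0 of 8 genes higher and 1, 0 and 2 lower in B6 in the CeA, NAcc and PrL, and 1, 0 and 1 higher and 3, 4 and 4 lower in PWK. Of 4 tested inhibitors, 1, 0 and 1 were higher and 0, 0 and 1 lower in B6, and the same counts held for PWK. A further list of 29 tested interferon-induced genes outside the members had 19 higher and 0 lower in B6 in the CeA, 16 and 1 in the NAcc and 11 and 2 in the PrL, with median log2 fold changes of 0.52, 0.31 and 0.12. Over all genes, 22.3%, 17.3% and 18.2% were higher and 18.8%, 14.9% and 19.3% lower. For PWK the counts were 10 and 4, 11 and 10, and 5 and 5, with medians of 0.11, 0.14 and -0.040, where 20.1%, 20.0% and 23.9% of all genes were higher and 19.1%, 18.7% and 23.2% lower. The PrL counts of PWK were below those shares. The immunity-related GTPases act on the vacuoles of intracellular pathogens. Irgm2 had the largest B6 difference of the list in each region, higher by 1.78 ± 0.16, 1.34 ± 0.13 and 1.09 ± 0.18, and Igtp was higher by 1.30 ± 0.19, 1.03 ± 0.15 and 1.06 ± 0.13. Irgm1 was higher in B6 by 0.57 ± 0.096, 0.40 ± 0.11 and 0.44 ± 0.093 and lower in PWK, at -2.01 ± 0.16, -2.10 ± 0.16 and -2.21 ± 0.19. Trim12c, a relative of Trim30a, had 0 counts in all PWK libraries of the CeA and the PrL and at most 1 count in the NAcc, where the Low_Average libraries had at least 0.337, 0.547 and 0.237 CPM in the CeA, PrL and NAcc. Whether reads of PWK failed to align to Trim12c was not tested.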

How the data were processed

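Stranded poly(A) RNA-seq libraries from hand-dissected frozen punches were aligned by the authors with STAR 2.7.3a to GRCm39 and deposited as whole-number counts per gene. The authors also deposited log2 values per gene for 143 libraries, made with edgeR 3.38.1 and limma 3.52.2 after a filter on low counts (a mean of at least 1 CPM, with genes above 50000 counts in a library also removed) and TMM scaling. The submitters' processing notes name FastQC and Trimmomatic as well. Of 240 deposited columns of counts, which include repeat runs of the same library, the 143 that the authors used were analysed, so 1 B6 library of the NAcc was left out. Library totals ran from 14942820 to 33951616 counts.

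The counts of the 14785 genes of the log2 table were fitted per region with limma-voom (R 4.3.3, limma 3.58.1, edgeR 4.0.16) with strain, sex and tray as terms and TMM factors over the 143 libraries. B6 and PWK were each compared with the mean of the 6 other strains, and p-values were adjusted by Benjamini-Hochberg over all genes and both contrasts; the 28 strain pairs were adjusted together, and a unique DEG differed from all 7 other strains in 1 direction. Region contrasts and interactions came from 1 fit over all libraries. CPM are counts-per-million of the scaled library size. The scripts were tested on simulated data with known changes. Floors of 3 counts cover counting error only, whereas the SE values come from the spread between libraries in the limma-voom fits.

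Members named with values were the 5 largest called changes per contrast and region, unique DEGs of the same strain in at least 2 regions, the 3 largest per region contrast, and members spanning over 8-fold in every region. Other members, and genes outside the members, were named after their values were seen. The members and lists were chosen with earlier results of these data known. The labels tie the 3 regions to the same mouse, and residuals of the same mouse correlated with a median r of 0.0552, 0.0257 and 0.00961 for CeA with NAcc, CeA with PrL and NAcc with PrL, against -0.000264, 0.00239 and 0.000204 between mice. Alternatives were edgeR, DESeq2 1.42.0, other scaling, filters, weights, runs, terms and Low_Average groups, the mouse as a block, and leaving out each B6 or PWK mouse, with 1 NZO and 1 PWK library of the CeA left out after seeing the data. Libraries of 1 strain and region came from different mice. Near-identical copies can split reads, and mismatches between a strain and the B6-based reference can lose them, so levels of paralogues and of wild-derived strains are uncertain. The result for 1 gene of the pathway lists is not reported here.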

Additional observations from a re-analysis of the deposited data

Results flagged for a closer look

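Among 360 groups of 1 strain and region (15 members with values, 24 groups each), 31 (8.61%) had a library far from the others, where chance gives about 1 in 20. Of these, 16 were the highest and 15 the lowest library of their group, and 8 came from the CeA of NZO mouse 26. In that library Ifit3 was at 11.95 CPM (next 2.408), Ifit2 at 18.12 (10.32), Irf7 at 3.782 (1.473), Oasl2 at 9.945 (3.13), Gbp3 at 5.649 (3.231), Ifih1 at 6.163 (3.534), Trim25 at 14.24 (10.58) and Xaf1 at 8.171 (2.277).

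Among the other high libraries, Lgals3bp was at 131.5 CPM in the CeA of PWK mouse 24 (next 38.06) and at 15.72 in the PrL of NOD mouse 15 (13.5). Xaf1 was at 12.27 CPM in the CeA of B6 mouse 1 (7.358), at 19.92 in the CeA of S129 mouse 46 (10.94), at 7.402 in the NAcc of NOD mouse 39 (4.427) and at 5.72 in the PrL of AJ mouse 21 (3.62). Ifi27 was at 7.331 CPM in the NAcc of PWK mouse 32 (5.946) and Ifit3b at 8.053 in the NAcc of S129 mouse 14 (4.839).

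Low libraries in the CeA were those of S129 mouse 46 for Dtx3l (2.827 CPM, next 4.822), CAST mouse 28 for Ifi27 (12.59, 21.46), NOD mouse 7 for Ifit1 (0.4208, 0.9359), AJ mouse 45 for Ifit3 (1.236, 1.756) and CAST mouse 44 for Trim25 (4.263, 5.333). In the NAcc they were those of S129 mouse 46 (0.5801 CPM, 1.188) and CAST mouse 36 (0.1046, 0.3871) for Ifit1, WSB mouse 19 for Ifit2 (5.969, 10.9), NOD mouse 47 for Lgals3bp (19.04, 26.07), B6 mouse 25 (0.4508, 1.066) and NZO mouse 26 (0.3109, 0.8721) for Mx2, PWK mouse 48 for Trim25 (6.956, 8.317) and NOD mouse 39 for Trim30a (1.066, 1.887). In the PrL they were those of NZO mouse 42 for Gbp3 (1.7 CPM, 3.429) and PWK mouse 24 for Ifi27 (4.957, 6.166).

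The difference of B6 from Low_Average differed between regions, by the interaction in limma, for Irf9 (adjusted p = 0.0404), Ifit1 (0.0351), Ifit3 (0.00383), Ifit3b (0.000816), Ifih1 (2.7e-06), Trim25 (0.0335), Parp14 (0.0369), Xaf1 (1.11e-05) and Lgals3bp (0.0174). That of PWK did for Trim25 (adjusted p = 0.0443). Strain differences over all 8 strains differed between regions for Ifit2 (adjusted p = 0.00404), Ifit3 (0.014), Ifit3b (0.00123), Mx2 (0.0214), Ifih1 (0.000118), Trim25 (0.00346), Samhd1 (0.042) and Xaf1 (2.82e-05).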

How the results depend on the processing

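Of 392 alternatives for the 30 counts of members, other than leaving out a mouse, 372 lay within 1.5 times the reported count, and of 1779 alternatives for 65 called member results 1734 kept the call and 0 reversed. The 65 were the called results of the 15 members with values only. Those members were picked in these same data for large differences, unique DEGs or wide spans, which favours keeping a call. Calls of other members, such as Bst2, Parp14, Parp9, Rtp4, Ifi35 and Gbp2, were not among the 65, and several were lost in the alternatives. Members lower in B6 in the CeA (0) numbered 1 with no filter on low counts, 2 with the second run of tray 2, 2 with both runs added and 1 with CAST out of Low_Average. Members lower in PWK in the CeA (3) numbered 6 with no filter, 5 with filterByExpr, which kept 18687 genes and 34 members, 5 without CAST and 5 with Low_Average of AJ, NOD, NZO and S129. With those 4 strains, B6 had 7 members higher in the NAcc (12) and 8 in the PrL (16), where sample quality weights gave 9 and leaving out CAST 10. Quality weights also gave 2 members lower in B6 in the PrL (1), 18 with an interaction (8) and 3 whose PWK difference varied by region (1). That last count was 2 without CAST, 2 with the 4 strains, and 2 without the CeA library of NZO mouse 26, an alternative chosen after seeing the data, as was leaving out that of PWK mouse 24. The causes were not tested.

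With the mouse as a replicate block, 0 members were lower in B6 in the PrL and 2 had a PWK difference that varied by region. Of the 65 called member results, those lost were Lgals3bp in B6 in the NAcc (adjusted p = 0.108) and the PrL (0.215) and Xaf1 in B6 in the PrL (0.0551), and the other 19 counts fitted with the block stayed within 1.5 times.

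Leaving out 1 mouse at a time, members higher in B6 in the PrL ran from 9 (without mouse 25; 10 without mouse 33) to 20 (without mouse 9), those lower from 1 to 2, the interaction from 7 to 13, the B6 difference by region from 4 to 16 and the PWK difference by region from 0 (without mouse 16, 24, 32 or 48) to 2. The named calls lost most often were Ifi27 in B6 in the CeA (lost in 7 of 28 alternatives) and Ifit1 in B6 in the PrL (lost in 6 of 27). Depth limited the 10 members outside the log2 table, for which 3 counts are 0.0999 to 0.232 CPM.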
